A study of Mus musculus with 9 samples.

Results

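The BCL2 family genes described here are 10 genes, found by their symbols among the 22173 genes of the deposited count files. They comprise 5 survival members (Bcl2a1b, Bcl2a1d, Mcl1, Bcl2l1 and Bcl2) and 5 death members. The death members are 3 BH3-only genes (Bid, Bbc3 and Bcl2l11) and 2 effectors (Bax and Bak1). All 10 had enough counts to be tested, with 12094 genes tested in all. The series title asks how the stiffness of the substrate acts on neutrophil polarization. Primary neutrophils of wild-type mice, taken from bone marrow, spent 2 days inside gelatin methacryloyl hydrogel, a modified gelatin cast at a chosen stiffness. Low stiffness (1.5 kPa) was the control, middle stiffness was 2.6 kPa and high stiffness was 5.7 kPa, and each had 3 of the 9 libraries. All groups shared the genotype, the medium with fetal bovine serum, the gel and the culture time. The labels do not say whether the 3 libraries of a group came from separate mice or cultures, so a p-value here measures library-to-library spread, which may be technical.

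BCL2 family proteins decide whether the outer mitochondrial membrane is opened during apoptosis. The effectors BAX and BAK form the pore, survival proteins such as MCL1, BCL-XL (from Bcl2l1) and A1 (from the Bcl2a1 genes) hold them and the BH3-only proteins in check, and BH3-only proteins such as BID, PUMA (from Bbc3) and BIM (from Bcl2l11) relieve that check. Mature neutrophils are short-lived cells that depend on MCL1, a protein with rapid turnover, and A1 is a known NF-kB target. The mouse has several near-identical Bcl2a1 copies.

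Upstream sequences are shown for the Bcl2a1 copies, because all high libraries of Bcl2a1b and Bcl2a1a lay above all low libraries and the copies are nearly alike, and for Bbc3 and Bcl2l11, the BH3-only genes known as FOXO3 targets. High and low libraries did not overlap, in either direction, for 12.7% of all tested genes. Each sequence is the 250 bases before the start site in RefSeq on GRCm38.p6, 5′ to 3′ on the gene's own strand. The windows are chr9:89199023-89199272 for Bcl2a1b, chr9:88731851-88732100 on the minus strand for Bcl2a1d and chr9:88956670-88956919 for Bcl2a1a, a copy outside the 10 genes. In these 3 windows capitals mark the letters GAGGAAGT, the core bound by PU.1, a transcription factor of myeloid cells.
Bcl2a1b: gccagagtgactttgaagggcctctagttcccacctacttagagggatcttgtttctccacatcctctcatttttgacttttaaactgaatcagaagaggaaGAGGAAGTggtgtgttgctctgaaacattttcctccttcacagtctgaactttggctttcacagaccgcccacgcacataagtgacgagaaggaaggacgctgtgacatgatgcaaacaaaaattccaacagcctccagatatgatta
Bcl2a1d: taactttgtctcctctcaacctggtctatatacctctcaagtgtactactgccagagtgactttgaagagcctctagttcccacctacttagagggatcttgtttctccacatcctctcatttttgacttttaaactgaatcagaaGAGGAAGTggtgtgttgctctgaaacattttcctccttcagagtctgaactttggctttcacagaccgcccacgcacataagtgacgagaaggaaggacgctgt
Bcl2a1a: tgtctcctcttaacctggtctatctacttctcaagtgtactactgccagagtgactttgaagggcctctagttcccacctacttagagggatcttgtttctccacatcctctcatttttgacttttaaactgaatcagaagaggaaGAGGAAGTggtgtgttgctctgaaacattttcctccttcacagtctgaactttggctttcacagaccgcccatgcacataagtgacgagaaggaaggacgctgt
Over the bases that align, the window of Bcl2a1a matched that of Bcl2a1b at 99.51% of positions and that of Bcl2a1d at 97.54%. The match began at -148 from the start site in Bcl2a1b, at -104 in Bcl2a1d and at -104 in Bcl2a1a.

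RefSeq gives 3 windows for Bbc3 and 2 for Bcl2l11. For each gene only the window with the motif marked below is shown, and its other windows did not hold that motif. The windows shown are chr7:16310011-16310260 for Bbc3 and chr2:128125788-128126037 for Bcl2l11, both on the plus strand. Capitals mark the FOXO motif GTAAACA, which lies on the reverse strand in Bbc3 (first base at -167) and on the forward strand in Bcl2l11 (at -227).
Bbc3: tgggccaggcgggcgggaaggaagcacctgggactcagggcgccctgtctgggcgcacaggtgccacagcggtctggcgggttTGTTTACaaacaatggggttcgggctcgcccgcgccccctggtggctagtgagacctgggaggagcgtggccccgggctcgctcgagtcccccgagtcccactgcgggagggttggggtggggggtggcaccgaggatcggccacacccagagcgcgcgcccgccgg
Bcl2l11: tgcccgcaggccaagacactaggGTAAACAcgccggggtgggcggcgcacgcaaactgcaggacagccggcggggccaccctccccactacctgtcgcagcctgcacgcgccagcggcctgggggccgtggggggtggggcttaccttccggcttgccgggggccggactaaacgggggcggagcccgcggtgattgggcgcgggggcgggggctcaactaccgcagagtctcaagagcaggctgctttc
Searched on both strands, GAGGAAGT was in 2.44% of all 32851 RefSeq windows of this length and GTAAACA in 3.17%. Among the 16 windows of the 10 genes and Bcl2a1a, 4 held GAGGAAGT (Bak1 and the 3 Bcl2a1 copies) and 2 held GTAAACA (Bbc3 and Bcl2l11), so no window of these held both. A match of letters is a description of the window, not a binding site.

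Total counts were 13.2 M to 19.5 M per library. The libraries differed most by replicate number: 65.4% of tested genes differed between replicate 1 and replicates 2 and 3 after gel stiffness was taken into account. The summed level of 9 neutrophil markers was 2745 to 15990 CPM (TMM-normalised counts-per-million) in low gels, 3236 to 14193 in middle gels and 3200 to 10379 in high gels, and it was 2745 to 3236 CPM in replicate 1 against 10292 to 15990 CPM in replicates 2 and 3. The sum of 8 macrophage and monocyte markers was 7576 to 8332 CPM in low, 5934 to 7098 CPM in middle and 5082 to 7474 CPM in high gels, so RNA typical of both lineages was present in every library. B-cell markers summed to 27.5 to 154 CPM, T-cell markers to 0.497 to 4.23 CPM and NK-cell markers to 0 to 0.478 CPM. No marker on these lists was at 0 in every library. In bulk RNA, fewer cells of a type and less RNA per cell cannot be told apart.

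Levels across genes were compared as CPM per kilobase of the deposited gene size, averaged over the 9 libraries. That size is an exonic length, from 764 bases for Bcl2a1b to 9973 bases for Bcl2l11. Whether it matches the transcripts made in these cells was not tested. The order of the genes depends on it: before division Mcl1 averaged 1590 CPM and Bax 184 CPM. Bax, an effector, averaged 195 CPM per kilobase (99.0 to 369) and Mcl1 averaged 182 (146 to 213), with overlapping ranges. Next came the effector Bak1 at 76.2 (39.4 to 110) and the survival gene Bcl2a1b at 75.0 (48.1 to 115), also overlapping, and every library of both lay below every Mcl1 value. Bid averaged 40.1 CPM per kilobase, and its range of 23.2 to 72.0 overlapped those of its neighbours above and below. Bcl2l1 averaged 20.6, Bcl2l11 20.4 and Bcl2a1d 18.1 CPM per kilobase, and these 3 did not separate. Bbc3, at 5.75 (4.49 to 6.88), lay below all of them, and Bcl2, at 0.696 (0.413 to 0.976), was the lowest of the 10. Mcl1 held 53.9% to 68.8% of the summed per-kilobase level of the 5 survival genes in every library.

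**Figure D1:**
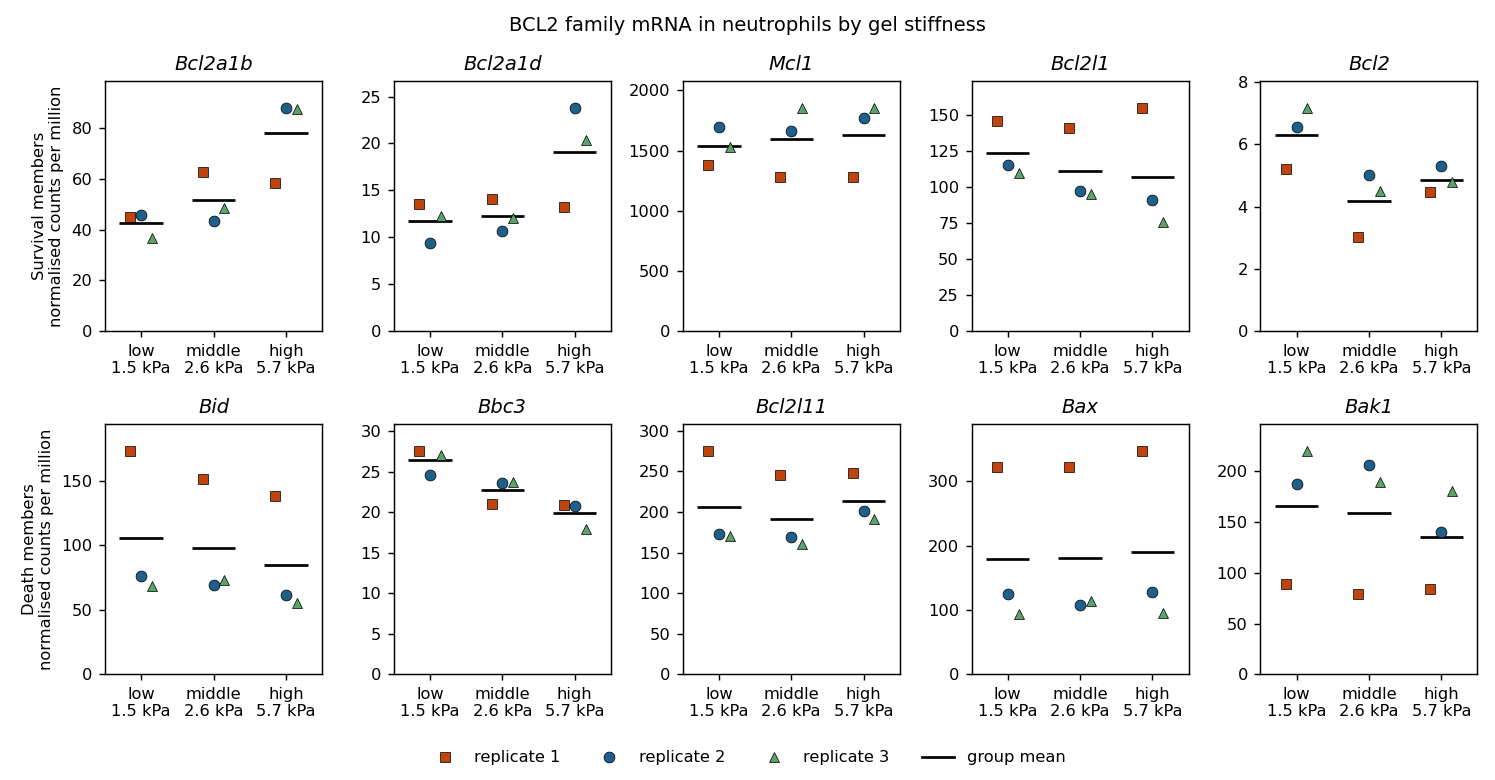
Normalised counts-per-million (CPM; y axis, from 0) of the 10 genes in low, middle and high gels, with survival genes in the upper row and death genes in the lower row; each point is 1 library, its shape and colour give the replicate number, and the bar is the group mean. Bcl2a1b in high gels (58.5 to 87.9) lay above low gels (36.8 to 45.7). The group mean of Bbc3 stepped down from low to middle to high, with middle and high nearly equal in replicate 1. The replicate 1 points of Bid, Bax, Bcl2l1 and Bcl2l11 lay above all other libraries.

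High against low was the widest contrast in stiffness. In the fit over all 9 libraries without a term for replicate number, 0 of the 10 genes passed an adjusted p under 0.05 (edgeR quasi-likelihood test), where 0.091% of all tested genes did, and 3 of the 10 had an unadjusted p under that value, against 7.72% of all genes. DESeq2 without a replicate term called 1 of the 10, Bcl2a1b (adjusted p = 0.0103), and 333 genes over all. When replicate number was fitted as a block, 3 of the 10 passed, 1 higher and 2 lower, against a background of 15.5% of all tested genes. Among all genes 6.72% passed as higher and 8.73% as lower in that fit. The 3 genes were Bcl2a1b, which rose, and Bid and Bbc3, which fell. Over the 5 survival genes the median log2 fold change with the block was 0.07, over the 5 death genes it was -0.26, and over all tested genes it was -0.00.

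Bcl2a1b, which encodes the A1 survival protein, had 44.9, 45.7 and 36.8 CPM in low gels, 62.5, 43.5 and 48.5 CPM in middle gels and 58.5, 87.9 and 87.5 CPM in high gels (replicates 1, 2 and 3 in each). Every high library lay above every low library, against 12.7% of all tested genes with no overlap between these gels in either direction. The middle libraries overlapped both groups. Bcl2a1b averaged 78.0 ± 16.9 CPM in high gels and 42.4 ± 4.94 CPM in low gels (SD, n = 3 each). The log2 fold change of high over low was 0.88 ± 0.21 (SE) in both fits, with an adjusted p of 0.0309 with the replicate block and 0.262 without it. With the block, the call was lost when any of low replicate 2, low replicate 3, middle replicate 3, high replicate 2 or high replicate 3 was left out, and the adjusted p then reached 0.133.

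Bcl2a1d, a second A1 gene, had 13.6, 9.37 and 12.3 CPM in low gels, 14.0, 10.7 and 12.1 CPM in middle gels and 13.2, 23.8 and 20.3 CPM in high gels. Replicates 2 and 3 of the high gels stood above every other library, while high replicate 1 lay among the low and middle libraries. Its log2 fold change of high over low was 0.72 ± 0.23 with the block, with an adjusted p of 0.0681 that did not pass, and 0.70 ± 0.25 without it (adjusted p = 0.501). In replicates 2 and 3 alone, both A1 genes passed, with log2 fold changes of 1.09 ± 0.10 for Bcl2a1b (adjusted p = 1.18e-05) and 1.03 ± 0.15 for Bcl2a1d (adjusted p = 4.17e-04). In that fit 5 of the 10 genes passed, against 26.3% of all tested genes. It has only 2 libraries per gel, and it leaves out the replicate number that earlier results of these data had shown to stand apart.

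The Bcl2a1 copies share sequence, and how the authors' counting placed reads shared by them is not stated, so the split between copies is uncertain. In GENCODE M21 the transcripts of Bcl2a1b and Bcl2a1d were identical at 99.14% of aligned bases, and 14.2% of the 150-base windows of Bcl2a1b and 30.3% of those of Bcl2a1d also occurred in another copy. Bcl2a1b held 58.3% to 66.8%, Bcl2a1a 19.5% to 27.1% and Bcl2a1d 13.4% to 19.7% of the counts of these 3 copies in the 9 libraries. Bcl2a1c had 1 count in high replicate 2 and 0 in the others. The sum of all Bcl2a1 rows was 77.0, 68.4 and 62.4 CPM in low gels, 105, 70.1 and 76.6 CPM in middle gels and 94.2, 148 and 139 CPM in high gels. Every high library was above every low library in the sum, but most of the sum is Bcl2a1b, so this is not a separate result. Fitted as 1 row, the sum gave a log2 fold change of high over low of 0.89 ± 0.23 with the block (adjusted p = 0.0476) and 0.88 ± 0.22 without it (adjusted p = 0.286).

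Mcl1, the survival gene that neutrophils depend on, had 1380, 1699 and 1530 CPM in low gels, 1278, 1666 and 1856 CPM in middle gels and 1279, 1772 and 1852 CPM in high gels. The 3 gels overlapped, and replicate 1 was the lowest library of each gel. Its log2 fold change of high over low was 0.07 ± 0.10 with the block (adjusted p = 0.68).

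Bcl2l1, which encodes BCL-XL, had 146, 116 and 110 CPM in low gels, 141, 97.0 and 94.9 CPM in middle gels and 155, 91.2 and 75.6 CPM in high gels. In replicates 2 and 3 the high libraries lay below the low ones, and in replicate 1 the high library was the highest of the 9. The log2 fold change of high over low was -0.26 ± 0.11 with the block (adjusted p = 0.128), and it was -0.44 ± 0.09 in replicates 2 and 3 alone (adjusted p = 0.00323). Bcl2 had 5.20, 6.55 and 7.17 CPM in low gels, 3.03, 5.02 and 4.51 CPM in middle gels and 4.48, 5.31 and 4.79 CPM in high gels. It was the scarcest of the 10 genes, with a log2 fold change of high over low of -0.37 ± 0.19 with the block (adjusted p = 0.208).

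Among the BH3-only genes, Bid had 173, 76.3 and 68.4 CPM in low gels, 151, 69.3 and 73.3 CPM in middle gels and 138, 61.3 and 55.6 CPM in high gels. BID links death receptors to mitochondria once caspase-8 has cut it. Replicate 1 was above replicates 2 and 3 in every gel, so the groups overlapped, but within each replicate number high was below low, by log2 differences of -0.32, -0.32 and -0.30 for replicates 1, 2 and 3. A difference of 1 sign in all 3 replicate numbers was found for 48.5% of all tested genes. The log2 fold change of high over low was -0.31 ± 0.08 with the block (adjusted p = 0.0279) and -0.32 ± 0.51 without it (adjusted p = 0.993). With the block, the call was lost without any 1 of the 3 low libraries, high replicate 2 or high replicate 3, with an adjusted p of up to 0.135.

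Bbc3, which encodes PUMA, the BH3-only protein known from the p53 response, had 27.6, 24.6 and 27.1 CPM in low gels, 21.0, 23.6 and 23.7 CPM in middle gels and 21.0, 20.8 and 18.0 CPM in high gels. All middle libraries lay below all low libraries. All high libraries lay below all middle libraries, but only just in replicate 1, with 20.96 CPM in high and 21.00 CPM in middle. The log2 fold change of high over middle was -0.20 ± 0.12 with the block and did not pass (adjusted p = 0.603). Groups that did not overlap were found for 12.7% of all tested genes in high against low, 7.77% in middle against low and 5.08% in high against middle. Bbc3 averaged 19.9 ± 1.67 CPM in high gels and 26.4 ± 1.57 CPM in low gels (SD, n = 3 each). Its log2 fold change of high over low was -0.41 ± 0.12 with the block (adjusted p = 0.0356) and -0.41 ± 0.14 without it (adjusted p = 0.441). With the block, the call held when middle replicate 1 or high replicate 1 was left out and was lost without any of the other 7 libraries, with an adjusted p of up to 0.178.

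Bcl2l11, which encodes BIM, the BH3-only protein tied to loss of growth factor signals, had 275, 173 and 170 CPM in low gels, 245, 169 and 160 CPM in middle gels and 248, 201 and 192 CPM in high gels. The log2 difference of high minus low was -0.15 in replicate 1, 0.22 in replicate 2 and 0.17 in replicate 3. The fitted log2 fold change with the block was 0.08 ± 0.09 (adjusted p = 0.581).

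Of the effectors, Bax had 321, 124 and 93.0 CPM in low gels, 321, 108 and 114 CPM in middle gels and 347, 128 and 95.6 CPM in high gels. Bak1 had 88.7, 187 and 219 CPM in low gels, 78.8, 206 and 189 CPM in middle gels and 84.1, 140 and 180 CPM in high gels. Both effectors split by replicate number, in opposite directions, and their gels overlapped. With the block, the log2 fold change of high over low was 0.06 ± 0.10 for Bax (adjusted p = 0.715) and -0.26 ± 0.11 for Bak1 (adjusted p = 0.145).

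**Figure D2:**
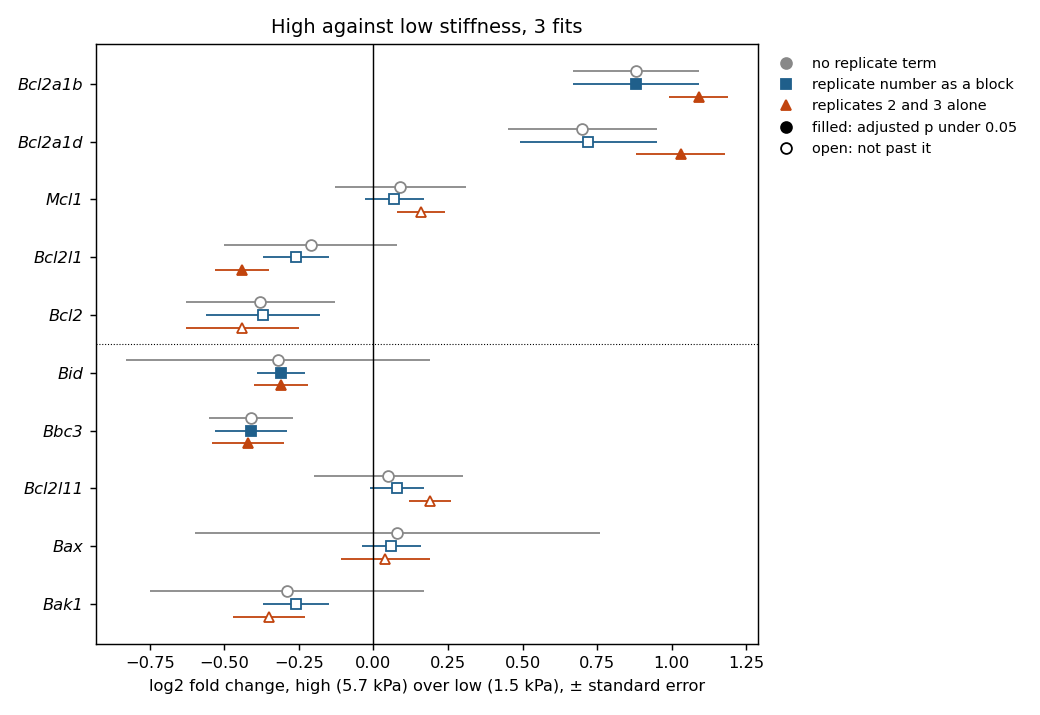
Log2 fold change of high over low stiffness (x axis) with its standard error for the 10 genes in 3 fits: without a replicate term, with replicate number as a block, and in replicates 2 and 3 alone; filled symbols have an adjusted p under 0.05, and the dotted line divides survival genes (above) from death genes (below). The error bar of Bax narrows to 0.10 with the block, against 0.68 without it, and filled symbols appear for Bcl2a1b, Bid and Bbc3 in the block fit.

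The markers of other cell types moved between the gels as well. Over all marker lists, 2 of 43 tested genes were higher and 15 lower with the block, or 39.5% called against 15.5% of all tested genes, and 0 passed without it. With the block, 0 of 9 neutrophil markers were higher and 3 lower in high than in low gels, and of 8 macrophage and monocyte markers 2 were higher and 4 lower. The gene for the macrophage colony-stimulating factor receptor, Csf1r, rose (log2 fold change 0.59 ± 0.10, adjusted p = 0.00322), while Mertk fell (-0.94 ± 0.12, adjusted p = 8.48e-04). Both markers of cycling cells fell, with log2 fold changes of -0.86 ± 0.09 for Top2a (adjusted p = 1.61e-04) and -0.42 ± 0.10 for Mki67 (adjusted p = 0.0138). Of the eosinophil markers 0 were higher and 3 lower of 4, of the megakaryocyte and platelet markers 0 and 2 of 3 (Itga2b and Gp9), and of the dendritic markers 0 and 1 of 3 (Siglech). None of the tested B-cell, T-cell, mast cell and basophil or erythroid markers passed with the block. In replicates 2 and 3 alone, 0 of 9 neutrophil markers were higher and 6 lower. In that fit 2 of 8 macrophage and monocyte markers were higher and 6 lower, and 0 of 4 erythroid markers were higher and 4 lower. The part of these shifts in the Bcl2a1b, Bid and Bbc3 values was not tested.

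Middle against low stiffness gave no call among the 10 genes in any of the 3 fits, where 0% of all tested genes passed without the block, 1.84% with it and 6.42% in replicates 2 and 3 alone. Without the block 318 genes had an unadjusted p under 0.05, 2.63% of those tested, among them 1 of the 10, and DESeq2 called 48 genes and 0 of the 10. That 1 gene was Bcl2. All its middle libraries lay below its low libraries, against 7.77% of all tested genes with no overlap between these gels. Its log2 fold change of middle over low was -0.59 ± 0.25 without the block (unadjusted p = 0.0447) and -0.59 ± 0.19 with it (adjusted p = 0.163). The other 9 genes had log2 fold changes with the block from -0.21 ± 0.11 (Bbc3) to 0.28 ± 0.21 (Bcl2a1b).

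High against middle stiffness gave no call among the 10 genes without the block (background 0%, 179 genes or 1.48% at an unadjusted p under 0.05, among them 2 of the 10, and 0 of the 10 by DESeq2) or with it (background 0.0165%). In replicates 2 and 3 alone 2 of the 10 passed, against 6.88% of all tested genes. They were Bcl2a1b, with a log2 fold change of high over middle of 0.93 ± 0.10 (adjusted p = 3.27e-04), and Bcl2a1d, with 0.96 ± 0.15 (adjusted p = 0.00364). Over all 9 libraries without the block the same log2 fold changes were 0.60 ± 0.21 and 0.64 ± 0.25. The other 8 genes had log2 fold changes between -0.31 ± 0.12 (Bak1) and 0.25 ± 0.07 (Bcl2l11) in replicates 2 and 3.

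Replicate number was then taken as the contrast. In a fit with terms for gel and replicate number, 6 of the 10 genes passed when replicate 1 was set against the average of the other two numbers, 4 higher and 2 lower, against a background of 65.4% of all tested genes (32.9% higher and 32.5% lower). All 3 replicate 1 libraries lay above or below all 6 others for these 6 genes, which was so for 54.2% of all tested genes. The labels do not say what libraries of the same number share, so culture, animal, preparation and day cannot be told apart. The neutrophil markers moved with it: 8 of 9 were lower in replicate 1, with a median log2 fold change of -1.95 over the 9. All tested markers were lower for eosinophils (4, median -2.82), T cells (2, median -2.77), cycling cells (2, median -2.03), B cells (4, median -1.86) and megakaryocytes and platelets (3, median -1.73). Of the macrophage and monocyte markers 5 of 8 were lower and 2 higher (median -0.91), 2 of 3 dendritic markers were lower, 1 of 4 erythroid markers was higher, and none of 4 mast cell and basophil markers passed. The sum of the 8 macrophage and monocyte markers was not lower: 7098 to 8332 CPM in replicate 1 and 5082 to 7629 CPM in replicates 2 and 3. Gpnmb, the most abundant of the 8, had 4560 to 5704 CPM in replicate 1 and 1165 to 3418 CPM in replicates 2 and 3. The part of these shifts in the values of the 6 genes was not tested.

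The effectors moved in opposite directions. Bax had 321, 321 and 347 CPM in replicate 1 of the low, middle and high gels, against 93.0 to 128 CPM in replicates 2 and 3, a log2 fold change of 1.58 ± 0.09 (adjusted p = 6.78e-08). Bak1 had 88.7, 78.8 and 84.1 CPM in replicate 1, against 140 to 219 CPM in replicates 2 and 3, a log2 fold change of -1.14 ± 0.10 (adjusted p = 2.46e-06). The BH3-only genes Bid and Bcl2l11 were higher in replicate 1, by log2 fold changes of 1.20 ± 0.07 (adjusted p = 1.21e-07) and 0.53 ± 0.08 (adjusted p = 7.71e-05). Among survival genes, Bcl2l1 was higher (0.61 ± 0.09, adjusted p = 1.17e-04) and Mcl1 lower (-0.40 ± 0.09, adjusted p = 0.00236). Bcl2 had a log2 fold change of -0.40 ± 0.17 that did not pass (adjusted p = 0.0576). Bcl2a1b, Bcl2a1d and Bbc3 had log2 fold changes of 0.01 ± 0.18, -0.03 ± 0.21 and 0.01 ± 0.10. The value for Bcl2a1b averages unlike gels. Replicate 1 was above replicates 2 and 3 in middle gels (62.5 against 43.5 and 48.5 CPM) and below them in high gels (58.5 against 87.9 and 87.5 CPM). The 6 genes remained called in each of the 9 fits that left out 1 library. Without high replicate 1, Bcl2a1b (adjusted p = 0.0411) and Bcl2 (adjusted p = 0.0468) passed as well.

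**Figure D3:**
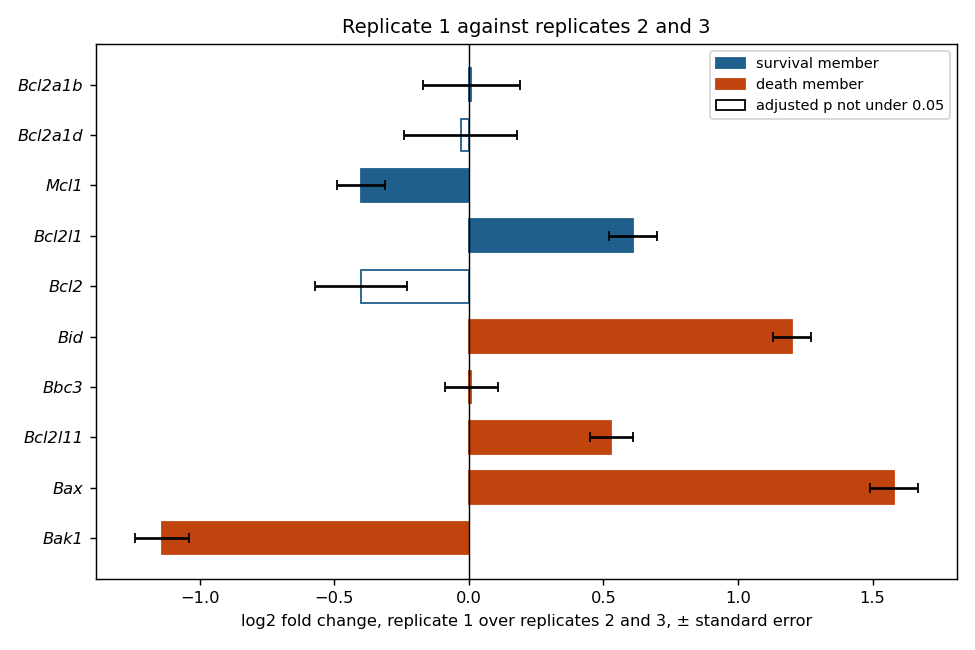
Log2 fold change of replicate 1 over the mean of replicates 2 and 3 (x axis, bars from 0) with its standard error for the 10 genes, in a fit with terms for gel and replicate number; blue bars are survival genes, orange bars are death genes, and open bars did not pass an adjusted p under 0.05. Bax (1.58) and Bid (1.20) extend furthest to the right and Bak1 (-1.14) to the left.

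The effect of stiffness in replicate 1 was then set against that in replicates 2 and 3. Replicate 1 has 1 library in each gel, so this contrast has no spread of its own for replicate 1, and the fit assumes that these libraries vary like the others. High minus low on the log2 scale was 0.38 in replicate 1, 0.94 in replicate 2 and 1.25 in replicate 3 for Bcl2a1b, and -0.04, 1.34 and 0.72 for Bcl2a1d. The difference of the high-over-low log2 fold change in replicate 1 minus that in replicates 2 and 3 was -0.71 ± 0.19 for Bcl2a1b (adjusted p = 0.0367) and -1.07 ± 0.29 for Bcl2a1d (adjusted p = 0.0387). In edgeR these passed as 2 of the 10 genes, against a background of 8.36% of all tested genes, and DESeq2 called neither (adjusted p of 0.0659 for Bcl2a1b and 0.0907 for Bcl2a1d). The call for Bcl2a1b was lost without low replicate 3, middle replicate 2 or middle replicate 3 (adjusted p up to 0.102), that for Bcl2a1d without low replicate 2, middle replicate 2 or middle replicate 3 (up to 0.121). For Bcl2l1 the difference was 0.52 ± 0.16 and did not pass (adjusted p = 0.0615). It passed when no filter on low counts was applied (adjusted p = 0.00827), without high replicate 2 (0.00261) and without middle replicate 1 (0.0476), and did not pass with DESeq2 (0.096). For Bid and Bbc3 it was -0.02 ± 0.15 and 0.02 ± 0.21. Marker lists moved in the same contrast: 4 of 4 erythroid markers were higher (median log2 difference 1.82), 5 of 9 neutrophil markers were higher and 1 lower (median 0.94), and 3 of 8 macrophage and monocyte markers were higher (median 0.34). Of the mast cell and basophil markers 2 of 4 were lower (median -1.67), as was 1 of 3 dendritic markers, and 1 of 3 megakaryocyte and platelet markers was higher. Over all tested genes the median was -0.01. The part of these shifts in the A1 values was not tested.

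As a description of survival against death genes, the mean log2 CPM of the 5 survival genes minus that of the 5 death genes was taken in each library. It was -1.17, -0.75 and -0.71 in low gels, -1.07, -0.80 and -0.73 in middle gels and -0.98, -0.27 and -0.29 in high gels. High replicates 2 and 3 were the highest of the 9 libraries, high replicate 1 was below every replicate 2 and 3 library, and within each replicate number the high library was above the low one. The group means were -0.51 ± 0.41 in high and -0.88 ± 0.25 in low gels (SD, n = 3 each), a difference of 0.36 that is under the spread of the high libraries. Without the 2 A1 genes the same difference was -0.35, 0.21 and 0.22 in low gels, -0.48, 0.04 and 0.04 in middle gels and -0.26, 0.16 and 0.13 in high gels, and the order of high and low then held in replicate 1 alone. On the per-kilobase scale the summed survival level was 261, 288 and 260 in low, 272, 280 and 309 in middle and 268, 365 and 367 in high gels. The summed death level was 493, 281 and 261 in low, 474, 270 and 269 in middle and 498, 257 and 238 in high gels. Death genes exceeded survival genes in all 3 replicate 1 libraries on that scale, and survival genes exceeded death genes in replicate 2 of every gel and in replicate 3 of the middle and high gels. Bax alone held most of the death level in replicate 1, with 369 of 498 in the high gel. Which sum is larger depends on the deposited gene sizes used as divisors.

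**Figure D4:**
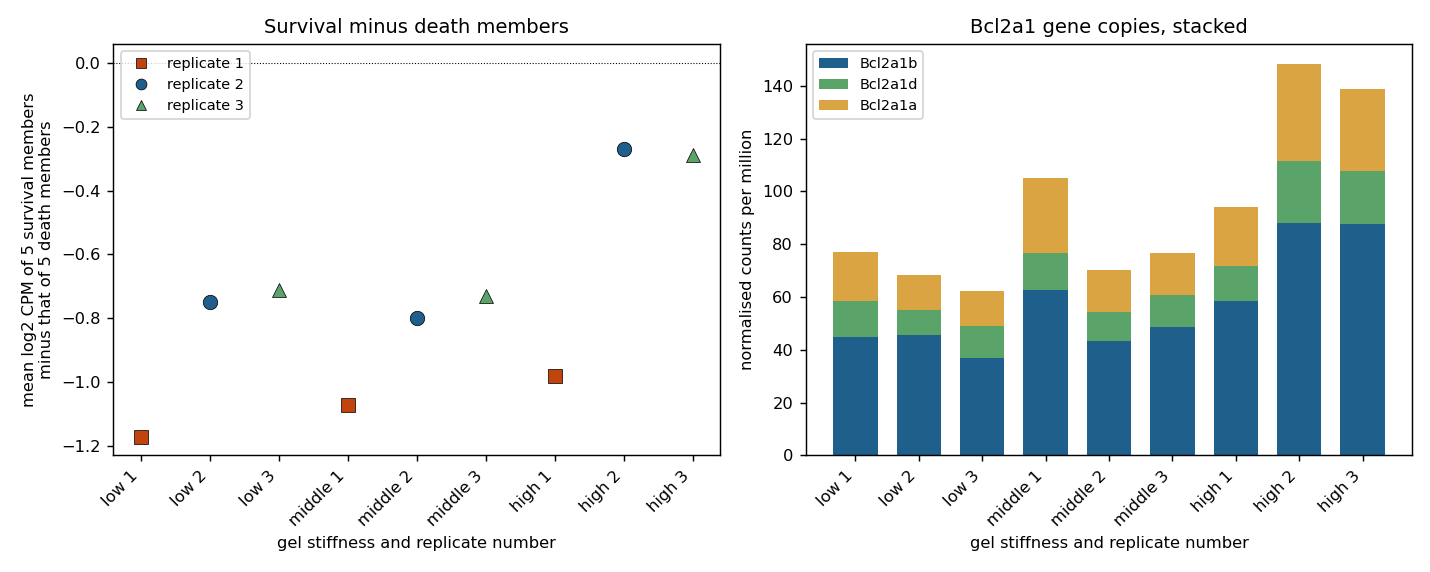
Left, mean log2 CPM of the 5 survival genes minus that of the 5 death genes in each library (x axis, gel and replicate number); right, stacked CPM of 3 Bcl2a1 copies in the same libraries. High replicates 2 and 3 have the highest values in both panels, with -0.27 and -0.29 on the left and 148 and 139 CPM on the right.

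The rest of the family was examined through 16 further genes, of which 11 were tested, and Bcl2a1c, Bcl2l10, Bok, Bik and Hrk were too low for it. In high against low with the block, 2 of the 11 were higher and 1 lower, against 6.72% higher and 8.73% lower over all tested genes, and without the block 0 passed and 2 had an unadjusted p under 0.05. Bcl2a1a, the other A1 copy, had 18.5, 13.3 and 13.3 CPM in low gels, 28.4, 15.9 and 16.0 CPM in middle gels and 22.5, 36.7 and 30.8 CPM in high gels, with all high libraries above all low libraries. No overlap between high and low gels, in either direction, was found for 12.7% of all tested genes. Bcl2a1a rose by a log2 fold change of 1.03 ± 0.28 with the block (adjusted p = 0.0482, against 0.357 without it). Bnip3, a BH3-like gene of mitophagy that hypoxia induces, had 151, 118 and 116 CPM in low gels, 241, 121 and 123 CPM in middle gels and 255, 134 and 144 CPM in high gels. It rose by 0.41 ± 0.12 with the block (adjusted p = 0.0379). Bcl2l14 fell, at low levels of 3.31, 2.27 and 1.14 CPM in low gels, 0.813, 1.01 and 1.37 CPM in middle gels and 0.355, 0.904 and 0.582 CPM in high gels (log2 fold change -1.79 ± 0.48, adjusted p = 0.029). The other 8 did not pass. Their log2 fold changes of high over low with the block were -0.85 ± 0.40 for Bcl2l15, -0.25 ± 0.09 for Pmaip1 (NOXA, a BH3-only partner of MCL1), -0.14 ± 0.08 for Bnip3l, -0.04 ± 0.19 for Bcl2l12 and 0.02 ± 0.11 for Bcl2l2. They were 0.12 ± 0.12 for Bmf, 0.14 ± 0.16 for Bad and 0.23 ± 0.09 for Bcl2l13.

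Upstream and downstream of the family, 5 further lists of pathway genes held 9 calls among 49 tested genes in high against low with the block, or 18.4% against 15.5% of all tested genes, which is near the background, and 0 without it, where 6 of their genes had an unadjusted p under 0.05. With the block and 1 library left out, these lists and the 16 family genes together held 2 to 13 calls, with 2 when high replicate 2 or high replicate 3 was left out. Among 14 regulators of the family, 2 rose and 1 fell. Nfkb1, a subunit of NF-kB, had 147, 134 and 134 CPM in low gels, 194, 184 and 197 CPM in middle gels and 217, 253 and 249 CPM in high gels. Its gels did not overlap, and its log2 fold change of high over low was 0.80 ± 0.09 with the block (adjusted p = 3.86e-04) and 0.80 ± 0.12 without it (adjusted p = 0.0765). Of all tested genes, 12.7% had no overlap in high against low, 7.77% in middle against low and 5.08% in high against middle. Nfkb2, another subunit, rose by 0.70 ± 0.15 (adjusted p = 0.0127), with 397, 418 and 409 CPM in high gels against 360, 208 and 211 CPM in low gels. Ddit3, which encodes the stress factor CHOP, fell by a log2 fold change of -0.31 ± 0.08 (adjusted p = 0.0259). It had 295, 248 and 257 CPM in replicate 1 of the low, middle and high gels and 53.3 to 71.9 CPM in the other libraries, so its gels overlapped.

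Of 9 genes of the inhibitor of apoptosis (IAP) family, 1 rose and 1 fell. Birc3, an IAP gene and NF-kB target, had 321, 647 and 707 CPM in high gels against 290, 341 and 349 CPM in low gels, a log2 fold change of 0.70 ± 0.15 (adjusted p = 0.0113). High replicate 1 lay within the range of the low libraries, as it did for Bcl2a1d. Birc5, which encodes survivin and works mainly in mitosis, had 2.27, 6.44 and 5.89 CPM in high gels against 2.26, 12.1 and 12.0 CPM in low gels (-0.75 ± 0.22, adjusted p = 0.0412).

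Of 9 tested death receptor genes 1 rose, Fas, with 223, 231 and 247 CPM in high gels against 183, 159 and 154 CPM in low gels and no overlap (log2 fold change 0.50 ± 0.09, adjusted p = 0.00467). Of all tested genes, 12.7% had no overlap between high and low gels. Of 5 survival receptors 2 rose. Csf2rb, the shared chain of the GM-CSF, IL-3 and IL-5 receptors, had 454, 932 and 1038 CPM in high gels against 394, 608 and 635 CPM in low gels (0.51 ± 0.11, adjusted p = 0.00885). Tnfrsf1b, a TNF receptor, had 2153, 1771 and 1805 CPM in high gels against 1793, 1324 and 1274 CPM in low gels (0.40 ± 0.09, adjusted p = 0.0159). Of 12 apoptosome and caspase genes 1 rose, Casp6, with 7.74, 10.7 and 13.1 CPM in high gels against 4.75, 8.61 and 7.95 CPM in low gels (0.56 ± 0.17, adjusted p = 0.0443). The medians of these lists with the block were -0.05 for the regulators, -0.24 for IAP genes, 0.03 for death receptors, 0.38 for survival receptors and 0.13 for apoptosome genes, against -0.00 for all tested genes.

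The genes most like the 3 members called between gels were sought among 9198 genes by Pearson's r of log2 CPM over the 9 libraries, as a description with no test. They were Ube2j1, Arg2 and Xkr8 for Bcl2a1b (r of 0.965, 0.950 and 0.947), Unc119b, Stx3 and Tagap1 for Bid (0.995, 0.993 and 0.993) and Snx30, Kdr and Gucd1 for Bbc3 (0.953, 0.947 and 0.939). After the mean of each replicate number was subtracted, the most alike were Brf1, Eif2b3 and Mfsd7a for Bcl2a1b (0.989, 0.989 and 0.982), Zfp955b, Trim37 and Abhd5 for Bid (0.977, 0.977 and 0.974) and Man2a2, Spib and Mreg for Bbc3 (0.997, 0.992 and 0.987).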

How the data were processed

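RNA sequencing gave 9 libraries. Per the labels' protocols, poly(A) RNA was made into stranded libraries and sequenced in pairs (150 bases each) on Illumina or MGI machines. Per the submitters' processing notes, reads were handled with cutadapt 1.9.1, HISAT2 2.0.1 and HTSeq 0.6.1 on GRCm39, and DESeq2 is also named. The sources used here give no parameters, annotation release, cell purity, or age or sex of the mice. Each deposited file holds raw counts per gene for 1 library, the authors' FPKM and an exonic gene size. FPKM as deposited matched a recomputation from counts and sizes to within 0.005, and only the counts and sizes were used. Columns of other samples numbered 0.

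Counts were analysed with edgeR 4.0.16 and limma 3.58.1 in R 4.3.3: filterByExpr (12094 genes, holding at least 99.9% of the counts of each library), TMM normalisation, and robust quasi-likelihood fits to all genes with two-sided tests and Benjamini-Hochberg adjustment over all tested genes (adjusted p under 0.05). Standard errors were obtained as the absolute log2 fold change over the square root of F. CPM were TMM-normalised, with a prior count of 1 on the log2 scale. The main fit had no replicate term. Total counts of 13.2 M to 19.5 M bound the precision of low genes. No library was taken as a duplicate, since libraries within a group differed beyond counting noise (chi-square 5.03 to 203 per degree of freedom). Replicates 2 and 3 of a gel were much closer to each other (5.03 to 11.3) than either was to replicate 1 (138 to 203).

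The titles number replicates 1 to 3. After group means were removed, same-numbered libraries correlated at 0.580 to 0.841 over 9 pairs, which met the set condition of over 0.1 for printing the replicate block beside results. A replicate 2 and a replicate 3 library of different gels correlated at 0.541 to 0.680, so the correlations set replicate 1 apart and do not show that numbers 2 and 3 each pair libraries.

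Alternatives were DESeq2 1.42.0, RLE normalisation, no filter, the replicate block, replicates 2 and 3 alone, 1 library left out and the Bcl2a1 rows summed. Genes named are the 10 members, the other BCL2 family genes, up to 4 genes called in high against low from each other pathway list, and the 3 most correlated genes of each member called between gels (mean CPM of at least 5, no predicted-gene symbol). The members and lists were chosen with earlier results of these data known. The fits were checked on simulated counts with the same spread for every gene. The changes added there were larger than those of the members called in high against low with the block. That check therefore does not cover changes of this size or the spread of these data. All 10 members had RefSeq promoter windows, and coordinates are on GRCm38.p6, the build of that table, not the build of the counts. Sequences were compared with Biopython 1.88 in Python 3.11.15 and plots drawn with matplotlib 3.10.9.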

Additional observations from a re-analysis of the deposited data

Results flagged for a closer look

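For the A1 genes, the high-over-low log2 fold change in replicate 1 minus that in replicates 2 and 3 passed in edgeR's test of the difference itself. It was -0.71 for Bcl2a1b (adjusted p = 0.0367) and -1.07 for Bcl2a1d (adjusted p = 0.0387), where 8.36% of all tested genes passed. The difference rests on 1 high and 1 low library of replicate 1, and DESeq2 called neither gene (adjusted p of 0.0659 and 0.0907). Both calls were lost without middle replicate 2 or middle replicate 3. With the counts of all Bcl2a1 rows summed, an alternative chosen after seeing the data, it was -0.84 ± 0.15 (adjusted p = 0.0044). In the same contrast 4 of 4 erythroid and 5 of 9 neutrophil markers were higher, and the part of these shifts in the difference was not tested.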

How the results depend on the processing

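Calls changed with the replicate term, the library left out, the tool and, for 1 gene, the filter on low counts. For high against low stiffness, 0 of the 10 genes passed in edgeR without a block, against 3 with the replicate block, 1 with DESeq2 (Bcl2a1b, adjusted p = 0.0103), 4 with DESeq2 and the replicate block (Bcl2a1d added) and 5 in replicates 2 and 3 alone. Leaving out 1 library gave 0 to 6, with 0 in every fit without the block, and with it 0 without low replicate 2, low replicate 3, high replicate 2 or high replicate 3 and 6 without high replicate 1. For high against middle, replicates 2 and 3 alone gave 2, and leaving out 1 library gave 0 to 2. The calls over all genes moved in the same fits. With the block and 1 library left out they were 605 to 2469 for high against low and 0 to 301 for high against middle. Without the block they were 0 to 41 for high against low. For the difference between replicate numbers, DESeq2 called 0 of the 10 genes. Leaving out 1 library gave 0 to 3, with 0 without middle replicate 2 or middle replicate 3, and 514 to 1603 over all genes. With no filter edgeR called 3 of the 10, Bcl2l1 added (0.54, adjusted p = 0.00827, against 0.0615 with the filter). Without low replicate 1 or high replicate 1 that difference could not be fitted. For replicate 1 against replicates 2 and 3, leaving out 1 library gave 6 to 8 of the 10, and 6766 to 7898 over all genes. The other pathway genes tested were 11 of the family and 49 of the 5 further lists. They had 0 calls in edgeR without a block and 12 with the replicate block. DESeq2 gave 3, DESeq2 with the replicate block 14, replicates 2 and 3 alone 19, and leaving out 1 library 0 to 13. Over all tested genes, 15.5% passed in edgeR with the block and 26.3% in replicates 2 and 3 alone. These settings for the other pathway genes, and those that left out 1 library for the difference between replicate numbers, were chosen after seeing the data. The replicate block changed no other call among the 10 genes.

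Over all genes the calls for high against low were 11 in edgeR without a block, 1869 with the replicate block, 333 with DESeq2, 1901 with DESeq2 and the block and 3207 in replicates 2 and 3 alone. For middle against low they were 0, 222, 48, 462 and 784, and for high against middle 0, 2, 2, 108 and 840, in the same order of fits. The difference between replicate numbers gave 1011 in edgeR, 1556 without a filter and 683 with DESeq2.

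Signs reversed only for values that had not passed in edgeR over all libraries without a block or, for contrasts of replicate numbers, in their own fit. With 1 library left out, high-over-low log2 fold changes spanned -0.02 to 0.24 for Mcl1, -0.86 to 0.24 for Bid, -0.07 to 0.32 for Bcl2l11 and -0.68 to 0.82 for Bax, and the Bid value was positive only without low replicate 1 and without the block. Middle over low spanned -0.12 to 0.25 for Bcl2a1d, -0.06 to 0.20 for Mcl1, -0.57 to 0.43 for Bid, -0.32 to 0.15 for Bcl2l11, -0.69 to 0.73 for Bax and -0.36 to 0.26 for Bak1. High over middle spanned -0.10 to 0.18 for Mcl1, -0.41 to 0.17 for Bcl2l1, -0.74 to 0.26 for Bid, -0.69 to 0.79 for Bax and -0.55 to 0.02 for Bak1. Replicate 1 over replicates 2 and 3 spanned -0.22 to 0.29 for Bcl2a1b, -0.22 to 0.32 for Bcl2a1d and -0.04 to 0.11 for Bbc3. For Bcl2a1b it was also -0.01 with RLE normalisation and -0.00 with no filter or DESeq2, for Bbc3 -0.00 with RLE or DESeq2, and for Bcl2a1d 0.07 with the Bcl2a1 rows summed, which was chosen after seeing the data. The difference between replicate numbers spanned -0.09 to 0.09 for Bid, -0.09 to 0.15 for Bbc3 and -0.13 to 0.32 for Bax, and was 0.01 for Bid with no filter. The survival-minus-death difference of high over low, 0.36, ranged from 0.22 to 0.60 with 1 library left out. The cause of these changes was not tested.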
